A study of Mus musculus with 211 samples.

Results

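The genes described here are 9 members of the NF-kB system: the subunit genes Nfkb1, Nfkb2, Rel and Relb, and the feedback genes Nfkbia, Nfkbiz, Tnfaip3, Tnfaip2 and Tnip1. They were chosen by name, and each was found by its Ensembl identifier among the 48709 genes of the deposited count table. The table holds 211 single cells from the cochleae of adult CD1 mice that carry the Lfng-EGFP transgene, a reporter in which Lfng sequences drive EGFP in supporting cells (SCs) and, by the study's account, also in capillary endothelial cells. GFP-positive cells were sorted and captured on Fluidigm C1 chips, and the cells are labelled adult cochlear supporting cells at postnatal day 60 (P60) or 120 (P120). The P60 cells came from 8 captures of 3 to 24 cells, and the P120 cells from 4 captures of 16 to 37 cells. Each capture pooled several mice of either sex, so the capture was taken as the replicate, and no value belongs to a single animal. By the study's account, cells were dissociated and sorted over hours before lysis, and endothelial cells and outliers had been removed from the table.

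NF-kB is a family of dimeric transcription factors that switch on inflammatory and survival genes. In a resting cell, inhibitory IkB proteins keep the dimers in the cytoplasm. Signals from Toll-like, interleukin-1 or TNF receptors lead to degradation of the inhibitors and release of the dimers into the nucleus. Many genes that NF-kB induces act back on the pathway, so that the RNA of inhibitors such as Nfkbia is often used as a readout of recent NF-kB activity. Il1b, the gene of the cytokine interleukin-1 beta, is a known NF-kB target in myeloid cells, and Il1b-positive cells were compared with the rest for that reason.

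The label of the cells was checked against marker genes. A cell held between 41 and 5361476 reads assigned to genes, and 47 of the 211 cells held under 50000. Capture 10c was the shallowest, with a median of 451 reads over its 13 cells. The 13 neutrophil markers took 16.2% of all reads on genes (21469 to 262624 CPM by capture, with none at 0, where CPM are reads scaled to the same total of reads on genes), and 197 of 211 cells held at least 3 of them at 10 or more reads. The 15 SC markers took 0.0490% of the reads, with Hes5 at 0 and 55.3 to 14796 CPM by capture, and 7 cells held 3 of them at that level. No cell reached it for hair cell or endothelial markers, and 0 of 211 cells allows a share of up to 1.42%. The 10 leukocyte markers took 1.37% of the reads (453 to 24210 CPM by capture), with none at 0. Of the 211 cells, 171 held at least 3 of them at 10 or more reads. All values below are of cells with this marker profile, in which leukocyte and neutrophil markers were common and SC markers were rare. No SCs were set apart from leukocytes.

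The promoter sequences are shown first, because matches to the kappaB consensus, the DNA element that NF-kB dimers bind, were found in each member for which a promoter window was used. RefSeq windows on GRCm38.p6 that run from 250 bases before to 50 bases after a transcription start were searched on both strands, and windows were found for 6 of the 9 genes. All 6 genes held at least 1 match, in 8 of their 9 windows. Among all 32851 windows 8.46% held a match, and among the 27025 gene symbols 9.55% did. The 100 bases before the start are printed below 5′ to 3′ on the gene's strand, from the window listed first for each gene, with the matches in capitals.
Nfkbia, chr12:55492648-55492747, minus strand: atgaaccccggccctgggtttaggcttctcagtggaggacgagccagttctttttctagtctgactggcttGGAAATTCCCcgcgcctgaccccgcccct
Tnfaip3, chr10:19015411-19015510, minus strand: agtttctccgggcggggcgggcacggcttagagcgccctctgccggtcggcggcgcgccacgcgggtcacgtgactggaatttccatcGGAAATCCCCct
Tnfaip2, chr12:111442561-111442660, plus strand: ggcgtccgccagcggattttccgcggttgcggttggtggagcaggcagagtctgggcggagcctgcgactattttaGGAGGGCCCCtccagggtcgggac
Tnip1, chr11:54962941-54963040, minus strand: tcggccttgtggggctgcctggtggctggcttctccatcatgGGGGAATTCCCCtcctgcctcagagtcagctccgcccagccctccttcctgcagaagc
Rel, chr11:23770970-23771069, minus strand: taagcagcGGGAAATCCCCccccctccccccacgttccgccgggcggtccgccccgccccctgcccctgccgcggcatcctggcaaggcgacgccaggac
Nfkb2, chr19:46304637-46304736, plus strand: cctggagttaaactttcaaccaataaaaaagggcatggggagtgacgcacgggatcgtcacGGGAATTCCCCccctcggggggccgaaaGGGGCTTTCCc

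The match in the Nfkbia promoter began 29 bases before the start, that of Tnfaip2 24 bases before it, and those of Tnfaip3 125 bases before it, outside the printed stretch, and 12 bases before it. In Tnip1, Rel and Nfkb2 the capitals join matches that overlap by all but 1 or 2 bases, and Nfkb2 held a further match 11 bases before its start. Of all windows, 2.995% held a whole match within the last 100 bases before the start, as the printed stretches of the 6 genes do. The starts are those of RefSeq, while the gene spans given below come from another annotation. For Tnfaip3, Tnfaip2 and Nfkb2 those spans begin further upstream and include the printed stretch. A match is a string of letters and does not show that the site is bound in these cells. Nfkbiz, Nfkb1 and Relb had no window in the table.

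Levels are given in CPM, with the reads of a gene summed over the cells of a capture, and as CPM per kilobase of exon where genes are set against each other. Nfkbia and Nfkbiz stood highest. Nfkbia, which encodes IkB-alpha (ENSMUSG00000021025.7, chromosome 12 from 55489410 to 55492647 on GRCm38), averaged 1725 ± 1819 CPM (SD, n = 12 captures) and held at least 10 reads in 135 of 211 cells (63.98%, 95% Clopper-Pearson interval 57.1 to 70.5). Nfkbiz, which encodes the nuclear and inducible IkB-zeta (ENSMUSG00000035356.16, chromosome 16 from 55811375 to 55838899), averaged 1205 ± 979 CPM and held 10 reads in 133 cells (63.03%, interval 56.1 to 69.6). These intervals, and those given later, reflect counting error alone.

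The other feedback genes spread over a wide range. Tnfaip3, the gene of a ubiquitin-editing enzyme that shuts off signalling upstream of the IkB kinases (ENSMUSG00000019850.11, chromosome 10 from 19000910 to 19015657), averaged 667 ± 789 CPM and held 10 reads in 70 cells (33.2%). Tnfaip2, a TNF-induced gene whose protein acts on membrane protrusions (ENSMUSG00000021281.15, chromosome 12 from 111442469 to 111455018), averaged 617 ± 534 CPM and held 10 reads in 95 cells (45.02%). Tnip1, whose protein binds the Tnfaip3 enzyme and ubiquitin chains (ENSMUSG00000020400.17, chromosome 11 from 54910785 to 54962917), averaged 88.8 ± 235 CPM and held 10 reads in 18 cells (8.53%). A single cell of capture 36 gave 54.6% of all Tnip1 reads.

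The subunit genes lay below Nfkbia, Nfkbiz, Tnfaip3 and Tnfaip2 in mean CPM and in cells with 10 reads, while Rel was above Tnip1 on both. Rel, the gene of c-Rel, a subunit prominent in haematopoietic cells (ENSMUSG00000020275.9, chromosome 11 from 23736847 to 23770970), averaged 104.1 ± 112 CPM and held 10 reads in 54 cells (25.6%). Nfkb1, whose precursor protein is processed to a DNA-binding subunit of the canonical dimer (ENSMUSG00000028163.17, chromosome 3 from 135584655 to 135691547), averaged 64.7 ± 86.8 CPM and held 10 reads in 34 cells (16.1%). Nfkb2, the precursor gene of the non-canonical arm (ENSMUSG00000025225.14, chromosome 19 from 46304320 to 46312385), averaged 16.6 ± 29.1 CPM and held 10 reads in 13 cells (6.16%), with 51.2% of its reads in 1 cell. Relb, whose protein pairs with the Nfkb2 product (ENSMUSG00000002983.17, chromosome 7 from 19606217 to 19629438), averaged 15.2 ± 42.6 CPM and held 10 reads in 6 cells (2.84%), with 68.4% of its reads in 1 cell. Tnfaip2, Tnip1, Nfkb1 and Nfkb2 overlap other annotated genes, and reads in such an overlap cannot be assigned with certainty here.

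Per kilobase of exon, mean levels over the 12 captures ran from Nfkbia at 1071 ± 1130 CPM per kb and Nfkbiz at 240.2 ± 195 to Tnfaip2 at 124 ± 107.1 and Tnfaip3 at 92.3 ± 109.2. Below these came Tnip1 at 25.1 ± 66.4 CPM per kb, Rel at 13.9 ± 14.9, Nfkb1 at 5.36 ± 7.20, Relb at 3.92 ± 10.97 and Nfkb2 at 3.63 ± 6.35. Nfkbia exceeded Nfkbiz in 12 of 12 captures, Nfkbiz exceeded Tnfaip2 in 11 of 12, and Tnfaip3 exceeded Tnip1 in 10 of 12. The order of Tnfaip2 and Tnfaip3 split the captures evenly, with Tnfaip2 higher in 6 of 12. No difference between neighbours in this order exceeded the larger of their SDs between captures.

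**Figure D1:**
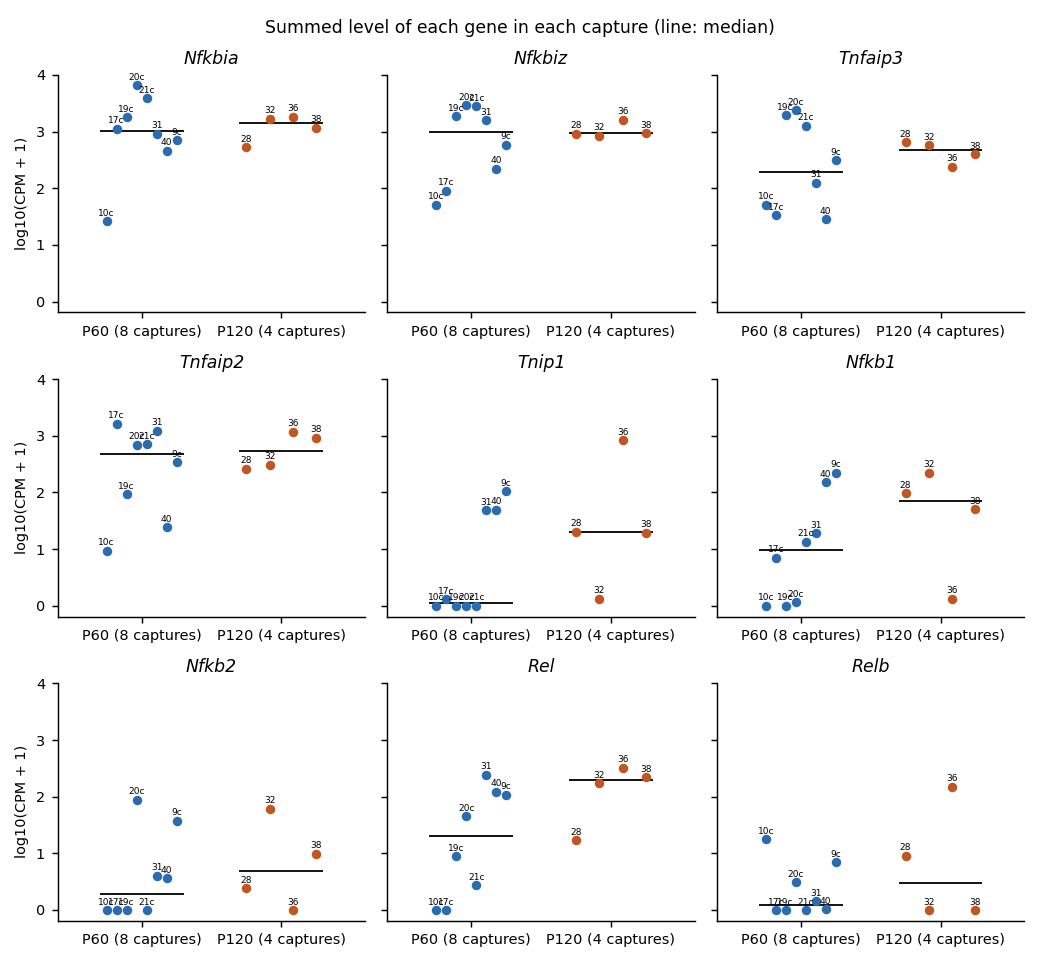
Summed level of each of the 9 genes in each of the 12 captures (log axis, CPM), with P60 and P120 captures marked. The points of the 4 P120 captures lie within the range of the 8 P60 captures for Nfkbia (526 to 1817 against 25.2 to 6554 CPM), and capture 36 stands high for Tnip1 (828 CPM) and Relb (150 CPM).

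The first comparison asked whether these levels differed between P60 and P120. They spanned overlapping ranges for each of the 9 genes. Nfkbia ranged from 25.2 through a median of 1022 to 6554 CPM in the 8 P60 captures, and held 526, 1694, 1817 and 1169 CPM in the P120 captures 28, 32, 36 and 38. Nfkbiz ranged from 50.3 through 1095 to 2947 CPM at P60, and held 921, 838, 1632 and 933 CPM at P120. For both Nfkbia and Nfkbiz the P120 captures sat inside the P60 range. Tnfaip3 ranged from 27.5 through 217 to 2388 CPM at P60, and held 641, 576, 239 and 399 CPM at P120. Tnfaip2 ranged from 8.39 through 515 to 1633 CPM at P60, and held 264, 306, 1185 and 924 CPM at P120. These 2 genes also kept within the P60 range.

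Tnip1 ranged from 0 through 0.151 to 103.5 CPM at P60, and held 19.2, 0.329, 828 and 18.5 CPM at P120. Relb ranged from 0 through 0.233 to 16.8 CPM at P60, where the highest value was 2 reads in capture 10c, and held 8.06, 0, 150 and 0 CPM at P120. Both were highest in capture 36, where the Tnip1 reads came largely from the single cell named above. Rel ranged from 0 through 25.9 to 244 CPM at P60, and held 16.2, 171, 321 and 217 CPM at P120. Nfkb1 ranged from 0 through 9.22 to 223 CPM at P60, and held 95.8, 221, 0.329 and 49.5 CPM at P120. Nfkb2 ranged from 0 through 1.30 to 87.4 CPM at P60, and held 1.40, 60.02, 0 and 8.83 CPM at P120. For Nfkb1, high and low captures occurred at both ages.

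None of the 9 genes passed the age test, in which edgeR's quasi-likelihood test over 12 captures called 10 of 8346 genes (0.12%) at an adjusted p below 0.05. At an unadjusted p below 0.05 it held 443 genes, with Tnip1 the only member among them. The log2 difference of P120 over P60 was 0.11 ± 1.32 (SE) for Nfkbiz, -0.22 ± 1.31 for Nfkbia, -0.95 ± 1.43 for Tnfaip3, 0.96 ± 1.34 for Tnfaip2, 0.87 ± 1.89 for Nfkb1 and -0.27 ± 2.23 for Nfkb2. For Rel it was 2.11 ± 1.59, and 0.98 without capture 36. For Tnip1 it was 4.52 ± 1.62 (adjusted p = 0.43) and for Relb 4.38 ± 2.32 (adjusted p = 0.94). Without capture 36 these became -0.87 and -1.39, and without capture 10c the value for Relb became 6.47. With standard errors of 1.31 to 2.32 on the log2 scale, differences of a few fold were not detectable with these captures. The 6 captures of the first sequencing lane were all P60, so lane and age cannot be told apart for them, and within the 6 captures of the other lanes the log2 difference was 1.31 for Nfkbia and 2.54 for Tnfaip3.

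The shares of cells with 10 or more reads had overlapping 95% intervals at the 2 ages for each gene. Nfkbia reached 65.7% of the P60 cells and 62.4% of the P120 cells, Nfkbiz 61.8% and 64.2%, Tnfaip3 29.4% and 36.7%, and Tnfaip2 43.1% and 46.8%. Among the subunit genes, Rel reached 23.5% and 27.5%, Nfkb1 13.7% and 18.3%, Nfkb2 5.88% and 6.42%, and Relb 2.94% and 2.75%. Tnip1 reached 9.80% and 7.34%. Capture 10c, whose 13 cells together held 119240 reads, had no cell with 10 reads of any of the 9 genes.

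The second comparison set Il1b-positive cells, those with 10 or more Il1b reads, against the rest. Il1b (chromosome 2 from 129364570 to 129371139) overlaps the antisense gene Il1bos, and their reads cannot be told apart here. There were 116 Il1b-positive cells (48 at P60 and 68 at P120) and 95 Il1b-negative cells (54 and 41), and the positive share per capture ran from 0% in capture 10c to 93.8% in capture 36. Just below the cut lay 61 cells at 1 to 9 reads, with 34 at 0, and above it 16 lay at 10 to 29, 14 at 30 to 99 and 86 at 100 or more. With the cut at 1 read the log2 difference of Nfkbiz between the classes, given below, was 1.10. The median depth was 725647 reads in positive and 838839 reads in negative cells. The cut was on reads and not on CPM, so a shallow cell could be negative at a high Il1b CPM. The highest Il1b level of a negative cell was 24390 CPM. Levels were compared within the 6 captures that held at least 3 cells of each class (9c, 31 and 40 at P60, and 28, 32 and 38 at P120).

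Nfkbiz, Nfkbia and the TNF-induced gene Tnfaip2 stood higher in Il1b-positive cells in most or all captures, but none passed the adjusted threshold in the main fit. In captures 9c, 31, 40, 28, 32 and 38, Nfkbiz held 254, 82.3, 157, 346, 314 and 8.93 CPM in Il1b-negative cells. In the Il1b-positive cells of the same captures it held 1355, 1809, 731, 1798, 1286 and 1578 CPM. Every positive value lay above every negative value, as was the case for 34 of the 7261 genes tested (0.468%). The log2 difference was 3.73 ± 0.85 (SE), with an unadjusted p of 0.0006 and an adjusted p of 0.18 by edgeR's quasi-likelihood test with capture as a block.

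Nfkbia held 517, 284, 460, 353, 507 and 552 CPM in Il1b-negative cells of captures 9c, 31, 40, 28, 32 and 38. It held 1134, 999, 481, 790, 2706 and 1599 CPM in the positive cells. It was higher in positive cells in 6 of 6 captures, as 2.02% of all genes tested were, though in capture 40 the values nearly met and the groups overlapped. The log2 difference was 1.87 ± 0.59 (edgeR adjusted p = 0.39). Tnfaip2 held 35.2, 169, 24.2, 54.7, 0.521 and 127 CPM in negative cells, and 1036, 1371, 18.5, 582, 567 and 1480 CPM in positive cells. It was higher in positive cells in 5 of 6 captures, and capture 40, with 4 positive cells, was the exception. Its log2 difference was 4.32 ± 1.16 (edgeR adjusted p = 0.26).

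The main fit called 1 of 7261 genes (0.0138%), which was Il1b itself, the gene that defines the classes. At an unadjusted p below 0.05 it held 555 genes, among them Nfkbiz, Tnfaip2 and Nfkbia. Whether these 3 genes passed depended on the method. DESeq2 gave adjusted p = 0.002 for Nfkbiz, 0.003 for Tnfaip2 and 0.035 for Nfkbia, with 1.8% of its 26469 genes called higher. limma on the mean log2(CPM + 1) over cells gave 0.0021 for Nfkbiz, 0.041 for Tnfaip2 and 0.18 for Nfkbia, with 1.05% of genes called higher. Without a filter on low counts, edgeR gave 0.0063 for Nfkbiz and 0.028 for Tnfaip2, with 0.212% of 26469 genes called higher. With cells thinned to 50000 reads, the edgeR log2 differences were 4.12 for Nfkbiz, 4.20 for Tnfaip2 and 1.86 for Nfkbia, none past the threshold. In that fit a cell was positive with at least 1 Il1b read after thinning, so the classes differ from those cut at 10 reads.

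**Figure D2:**
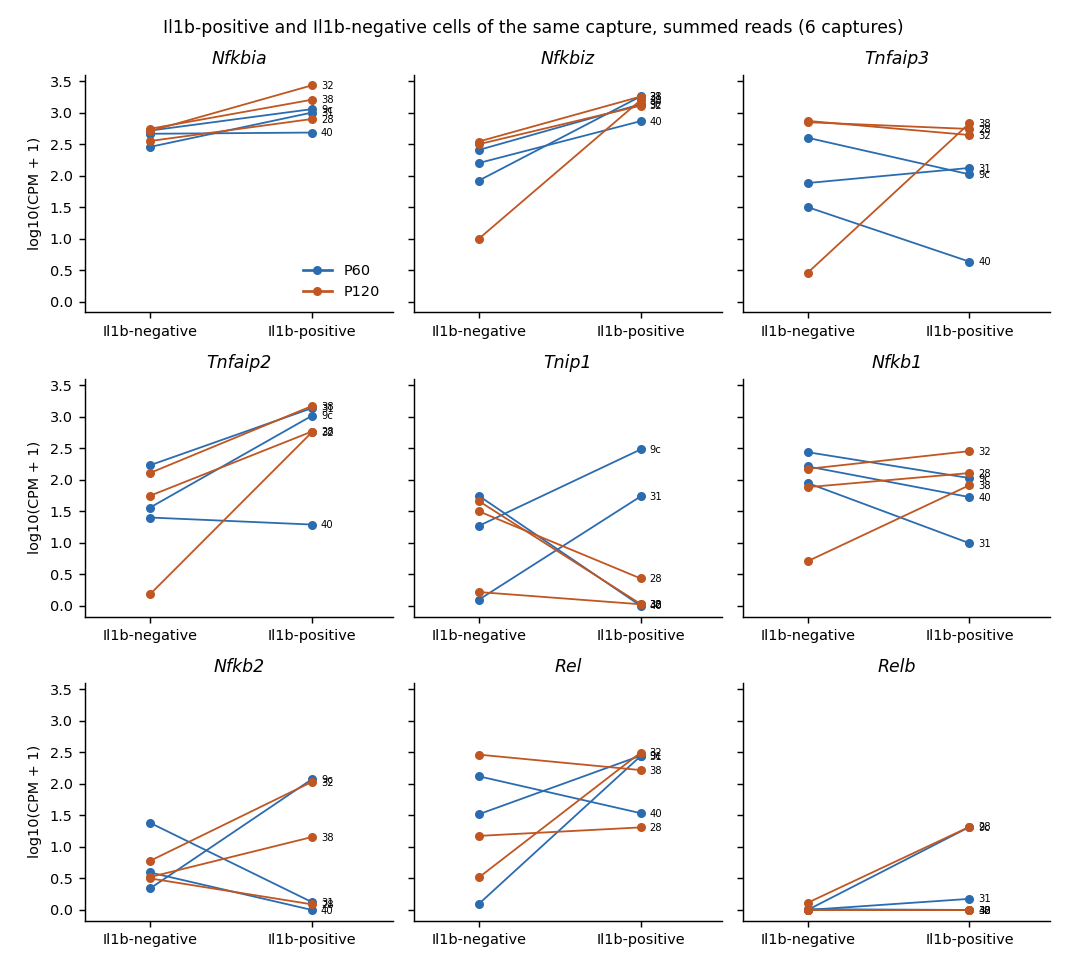
Level of each gene in Il1b-negative and Il1b-positive cells of the same capture (log axis, CPM), with lines joining the 2 classes of each of the 6 captures. All 6 lines rise for Nfkbiz and Nfkbia, 5 of 6 rise for Tnfaip2, and the lines cross in both directions for Tnfaip3 and Nfkb1.

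The remaining genes did not separate the classes. Tnfaip3 held 397, 75.1, 30.6, 702, 737 and 1.86 CPM in negative cells of captures 9c, 31, 40, 28, 32 and 38, and 103.5, 131, 3.30, 549, 439 and 676 CPM in positive cells. It was higher in positive cells in 2 of 6 captures, with a log2 difference of 0.17 ± 1.31. Rel held 32.05, 0.246, 132, 13.99, 2.28 and 291 CPM in negative cells and 280.4, 277, 33.4, 19.4, 314 and 165 CPM in positive cells. It was higher in 4 of 6 captures, with a log2 difference of 2.63 ± 1.86. Nfkb1 held 273, 87.9, 162, 75.3, 148 and 4.09 CPM in negative cells and 105.5, 8.83, 52.1, 127, 284 and 81.1 CPM in positive cells. It was higher in 3 of 6 captures, with a log2 difference of 0.24 ± 1.37.

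Tnip1 was higher in positive cells in 2 of 6 captures (log2 difference -3.09 ± 3.30) and Nfkb2 in 3 of 6 (0.33 ± 4.08). Both had 1 or no cell with 10 reads in many of the captures and classes. Relb fell below the filter on low counts and was not tested. It held 10 reads in 6 of 116 positive cells and in 0 of 95 negative cells, for which a limit of 3 counts is a share of 3.16%.

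Shares of cells were compared after each cell was thinned to 50000 reads, which left 98 Il1b-positive and 66 Il1b-negative cells. Nfkbiz had a read in 92.9% of positive cells (95% Clopper-Pearson interval 85.8 to 97.1) and 54.5% of negative cells (41.8 to 66.9). Tnfaip2 had a read in 71.4% (61.4 to 80.1) and 39.4% (27.6 to 52.2), and Nfkbia in 87.8% (79.6 to 93.5) and 74.2% (61.99 to 84.2). These intervals pool cells over captures and reflect counting error alone, and the shares were not set against those of all other genes. Tnfaip3 had a read in 46.9% and 33.3%, Rel in 36.7% and 22.7%, Nfkb1 in 14.3% and 24.2%, Tnip1 in 10.2% and 12.1%, Nfkb2 in 8.16% and 7.58%, and Relb in 5.10% and 0%. Without thinning, cells with 10 or more reads made up 82.8% and 38.9% for Nfkbiz, 62.1% and 24.2% for Tnfaip2, and 75% and 50.5% for Nfkbia. Over the 6 captures, the share for Nfkbiz averaged 81.4% ± 10.2 (SD) in positive and 47.6% ± 21.2 in negative cells and was higher in positive cells in 6 of 6. The share for Tnfaip2 was higher in positive cells in 4 of 6 captures and lower in 1, and that for Nfkbia was higher in 3 of 6.

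Markers of other cell states moved with the Il1b classes. The 6 markers of granulocyte precursors and basophils summed to 21988 CPM in Il1b-negative cells (302 to 56380 over 7 captures) and 8877 CPM in positive cells (3.66 to 29377 over 10), with none at 0. The 20 immediate early genes, which cells induce within minutes of stimulation or handling, summed to 5121 CPM in negative cells (403 to 8477) and 21423 CPM in positive cells (5263 to 27918), with none at 0. The 13 neutrophil markers summed to 168517 CPM in negative cells (21469 to 229297) and 156038 CPM in positive cells (68027 to 230502.0), with none at 0. Gene by gene, 11 of the 13 were higher in positive cells and 0 were called. Their median log2 difference was 0.64, beside -0.35 over all 7261 genes tested. The largest were Cxcr2 (4.28 ± 1.15), Retnlg (3.28 ± 0.81), Ly6g (2.84 ± 1.64) and Mmp9 (2.80 ± 1.11). The 10 leukocyte markers summed to 10600 CPM in negative cells (453 to 12652) and 16713 CPM in positive cells (10305 to 34382), with none at 0. The 15 SC markers summed to 850 CPM over all negative cells and 136 CPM over all positive cells, but by capture the classes overlapped (37.4 to 749 and 48.4 to 542 CPM), with Hes5 at 0 in both and Fgfr3, Epyc and Fabp3 at 0 in negative cells. The 8 markers of T, B and NK cells summed to 1050 CPM (25.2 to 1641) in negative and 128 CPM (0 to 481) in positive cells, with Ncr1 at 0 in the latter. The 10 of monocytes and macrophages summed to 1556 CPM (1.50 to 3120) and 527 CPM (0.349 to 866), with Ms4a7 at 0 in positive cells. Negative cells also had more genes detected, with a median of 2409 against 1552. The part of these differences in the values of the NF-kB genes was not tested beyond the comparison without precursor transcripts.

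Cells with 10 or more reads of any of the 6 precursor and basophil markers were then left out, which left 80 positive and 49 negative cells. The negative cells were shallow, with a median of 105222 reads, and 13 of them came from capture 10c. Shares by class, after thinning, are given for 68 positive and 25 negative cells without precursor transcripts, and 30 positive and 41 negative cells with them. Nfkbiz had a read in 91.2% of positive and 64% of negative cells without precursor transcripts, and in 96.7% and 48.8% of cells with them. Tnfaip2 had a read in 77.9% and 36% without, and in 56.7% and 41.5% with them. Nfkb1 had a read in 5.88% and 16% of cells without them, and in 33.3% and 29.3% of cells with them. The intervals of the negative cells overlapped (4.54 to 36.1 and 16.1 to 45.5), and the pooled Nfkb1 level of negative cells was 180.1 CPM without and 90.3 CPM with precursor transcripts. Rel had a read in 32.4% and 8.0% of cells without and 46.7% and 31.7% of cells with them.

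**Figure D3:**
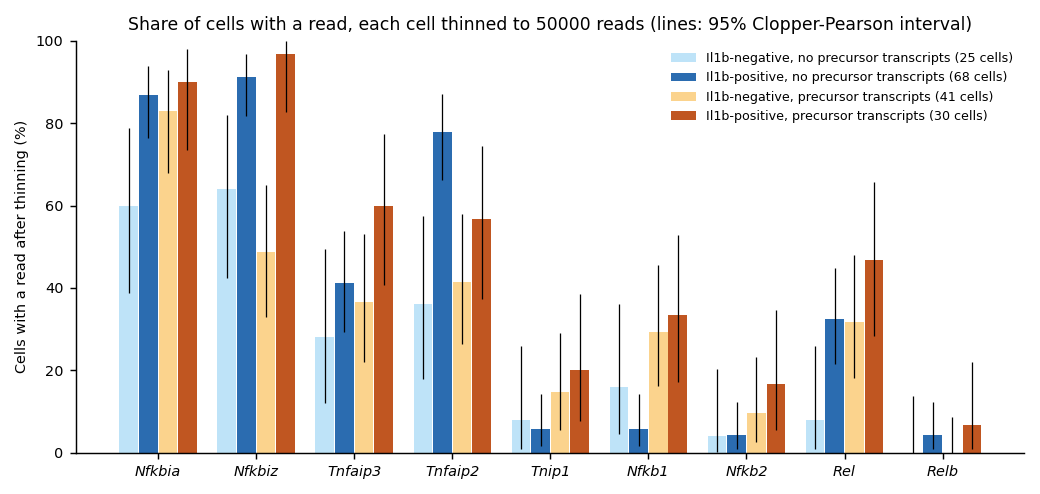
Percent of cells with a read of each gene after thinning to 50000 reads, by Il1b class and by presence of precursor transcripts, with 95% Clopper-Pearson intervals. For Nfkbiz both positive classes lie above 90%, and for Nfkb1 both classes with precursor transcripts lie above both classes without.

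Summed levels without precursor transcripts could be compared in 4 captures (9c, 28, 32 and 38), where the 3 negative cells of capture 32 held 32107 reads together. Il1b itself held 529 CPM in those negative cells, above its 356 CPM in the positive cells of capture 28. The 2 classes therefore overlapped in Il1b level in this comparison. Tnfaip2 held 10.3, 264, 62.3 and 49.8 CPM in negative cells and 2716, 1354, 949 and 1380 CPM in positive cells. All 4 positive values lay above all 4 negative values, as did those of 2.94% of the 2717 genes tested. The log2 difference was 4.64 ± 2.14 (edgeR adjusted p = 1.0, unadjusted p = 0.030). Rel held 18.96, 0, 31.1 and 0.510 CPM in negative cells and 99.3, 3.71, 127 and 197 CPM in positive cells. It was higher in 4 of 4 captures, as 12.4% of all genes were, with a log2 difference of 4.73 ± 3.34.

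Nfkbiz held 90.02, 1705, 1059 and 21.9 CPM in negative cells and 1402, 649, 1326 and 1281 CPM in positive cells of captures 9c, 28, 32 and 38. Nfkbia held 59.9, 147, 218 and 1045 CPM in negative and 1713, 8.60, 1544 and 1803 CPM in positive cells. Each was higher in 3 of 4 captures, and capture 28, with 4 cells in each class, went the other way for both. The log2 differences were 2.30 ± 2.21 and 1.56 ± 2.49. Tnfaip3 was higher in 1 of 4 captures, with a log2 difference of -2.38 ± 2.48. This fit called 1 gene (0.0368%), again Il1b, and held 72 genes at an unadjusted p below 0.05. Tnip1, Nfkb1, Nfkb2 and Relb were below its filter.

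Whether the Il1b difference itself changed with age was tested as an interaction over the 6 captures. No gene was called among 10210 (0.0%) by edgeR, with 216 at an unadjusted p below 0.05, none of them a member, while DESeq2 called 275 genes. Nfkb1 had log2 ratios of positive over negative cells of -1.36, -3.18 and -1.62 in the P60 captures 9c, 31 and 40, and of 0.74, 0.94 and 4.01 in the P120 captures 28, 32 and 38. The ratios lay on opposite sides of 0 at the 2 ages. The share of cells with 10 or more Nfkb1 reads did not follow this, and was lower in positive cells in 5 of 6 captures. The exception was the P60 capture 40 (50% of positive and 15% of negative cells). In capture 38, 1 of 19 positive cells held 10 Nfkb1 reads, and 1 cell held 96.6% of the Nfkb1 reads of the capture. The interaction was 4.35 ± 2.57 on the log2 scale (edgeR adjusted p = 1.0, unadjusted p = 0.10).

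The other genes of the pathway were read from lists. Of 13 receptor genes, 8 were tested between the Il1b classes, 0 were called, and 6 were higher in positive cells, with a median log2 difference of 2.77 beside -0.35 over all 7261 genes tested. The largest were Il1r2, a decoy receptor for interleukin-1 (5.05 ± 0.95, adjusted p = 0.080), Tlr2 (4.83 ± 2.75), Tlr4 (4.47 ± 3.34) and Cd14, a lipopolysaccharide co-receptor (3.01 ± 1.13). Of 23 known NF-kB target genes, 17 were tested, 0 were called and 15 were higher, with a median of 3.63, led by the chemokine gene Ccl4 (6.85 ± 1.92) and Ptafr (6.84 ± 1.83). Of 16 other feedback genes, 13 were tested, 0 were called and 10 were higher, with a median of 0.65, and the interleukin-1 receptor antagonist Il1rn stood at 3.50 ± 1.59. Among 20 kinases and adaptors, 14 were tested, 0 were called and 7 were higher, with a median of 0.00, and among the 6 other NF-kB and IkB genes 5 were tested, 0 were called and 3 were higher, with a median of 0.78. Of the 20 immediate early genes, 19 were tested, 0 were called and 17 were higher, with a median of 2.46, led by Atf3 (10.28 ± 1.604, adjusted p = 0.051). The 8 members tested had no call either. Without precursor transcripts, where the median over all 2717 genes tested was 1.06, the medians were 0.82 for 5 receptors (3 higher), 2.63 for 15 target genes (11 higher), 1.48 for 11 other feedback genes (8 higher), 1.87 for 5 kinases and adaptors (3 higher) and 1.53 for 16 immediate early genes (16 higher). The 1 other NF-kB or IkB gene tested there was higher in positive cells, and no gene of these lists was called.

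Between P60 and P120 the lists held 1 call. Among 20 target genes tested, Il6 was higher at P120, by 10.76 ± 2.34 on the log2 scale (edgeR adjusted p = 0.010). Without capture 32 its adjusted p was 0.61, without capture 40 it was 0.055, and with sequencing lane as a covariate it was 1.0. In captures of lanes 2 and 3 only, edgeR gave an adjusted p of 0.18. By limma on the mean log2(CPM + 1) over cells the log2 difference was 1.38 (adjusted p = 0.97). Adjusted p was 7.4e-07 by DESeq2 and 0.029 by edgeR without a filter on low counts. The median log2 difference was 0.29 over target genes, 0.69 over 9 receptors, 0.96 over 13 other feedback genes, -0.59 over 15 kinases and adaptors and 0.56 over 5 other NF-kB and IkB genes, beside 0.26 over all genes tested and 0.87 over the 9 members. Over the 18 immediate early genes tested it was 1.04, with 17 higher at P120 and 0 called.

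The number of the 9 genes present in the same cell was counted. The median cell held 3 of them at 10 or more reads, 37 cells (17.5%) held none, 36 (17.1%) held 5 or more, and the most was 7. After thinning, the median number of genes with a read was 2 in Il1b-negative cells without precursor transcripts and 3 in those with them. In Il1b-positive cells it was 3 without and 4 with precursor transcripts. Cells with 5 or more made up 0 of 25, 7 of 41 (17.1%), 15 of 68 (22.1%) and 14 of 30 (46.7%) in the same order. The classes also differed in genes of any kind. Over all cells of each class before thinning, the median number of genes detected was 1075, 4343.5, 1453 and 3081.5 in that order. No other set of genes was counted in this way, so the counts are not shown to be particular to these 9 genes.

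**Figure D4:**
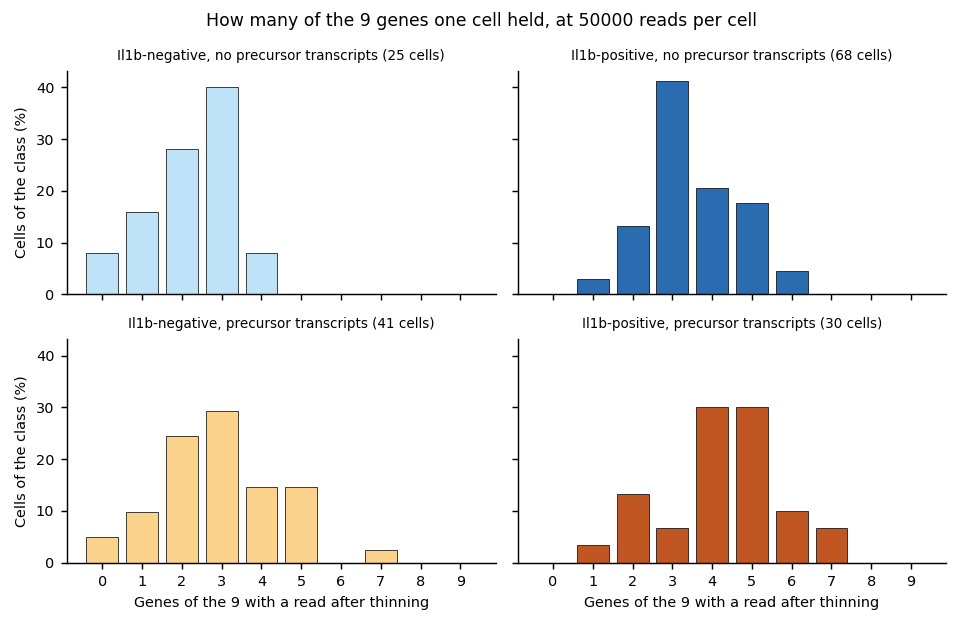
Share of cells (percent) by number of the 9 genes with a read after thinning to 50000 reads, for Il1b-negative and Il1b-positive cells without and with precursor transcripts. The distribution of positive cells with precursor transcripts reaches furthest to the right, with 46.7% of its 30 cells at 5 or more genes.

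Co-expression was described over the 164 thinned cells as Spearman's rho of log2(CPM + 1), with no test, since cells share captures, libraries and depth. Over the 36 pairs of the 9 genes the median rho was 0.07. Of these pairs 7 (19.4%) exceeded 0.2, while 27.6% of all pairs among the 1550 genes with a read in enough cells did. Tnip1, Nfkb1, Nfkb2 and Relb had a read in too few cells to be among those genes, so the shares rest on unlike genes. The highest was Nfkbia with Nfkbiz at 0.34. This pair had a mean rho of 0.12 within captures, above 0 in 4 of 7, and 0.09 among the 98 Il1b-positive cells. Cells with 10 reads of both genes were 77.04% of the Nfkbia cells and 78.2% of the Nfkbiz cells. Nfkbiz with Tnfaip3 reached 0.29 and was above 0 in 7 of 7 captures. Tnfaip3 with Nfkb1 reached 0.26 and was above 0 in 6 of 6. The lowest was Tnfaip2 with Nfkb1 at -0.34, and within captures it averaged -0.29, above 0 in 0 of 6, with 9 cells holding 10 reads of both.

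**Figure D5:**
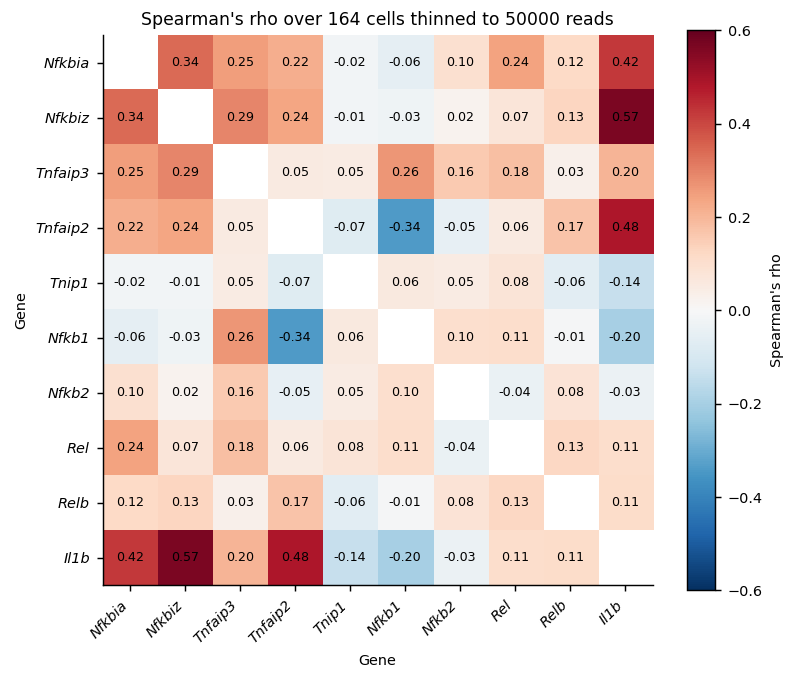
Spearman's rho between each pair of the 9 genes and Il1b over 164 cells thinned to 50000 reads. Nfkbiz, Tnfaip2 and Nfkbia have the highest values with Il1b (0.57, 0.48 and 0.42), and Tnfaip2 with Nfkb1 has the lowest of the 36 member pairs (-0.34).

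With the level of Il1b, Nfkbiz had a rho of 0.57 (mean 0.42 within captures), Tnfaip2 0.48 (0.37) and Nfkbia 0.42 (0.31). Among the Il1b-positive cells alone these were 0.20, 0.35 and 0.31. Tnfaip3 stood at 0.20, Rel and Relb at 0.11, Nfkb2 at -0.03, Tnip1 at -0.14 and Nfkb1 at -0.20. The genes nearest to Nfkbiz were Il1b at 0.57, Dusp1, an immediate early phosphatase gene, at 0.56, and Il1r2 at 0.55. Those nearest to Tnfaip2 were Csf3r, the receptor of the granulocyte growth factor, at 0.51, Clec4d at 0.50 and Il1b at 0.48. Those nearest to Nfkbia were Plek at 0.50, Pim1 at 0.47 and Fxyd5 at 0.46. Tnfaip3 was nearest to Dusp1 at 0.36, Ccl3 at 0.31 and Fxyd5 at 0.30, and Rel to Dnajb6 at 0.32, Eloc at 0.30 and Fam32a at 0.30. For the 4 genes seen in fewest cells, whose values are sparse, the nearest were Nfkb1 with Sh3bgrl at 0.40, Tnip1 with mt-Co3 at 0.37, and Nfkb2 with Stap1 and Relb with Pirb at 0.29 each.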

How the data were processed

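Single-cell RNA-seq libraries (Fluidigm C1, full-length SMARTer chemistry, no molecular identifiers) were made from 211 sorted cells. The authors aligned reads to GRCm38 (mm10) with STAR and deposited raw counts per gene of the vM11 annotation. A deposited score of GFP intensity per cell, scaled by the authors in a way not given in the sources used here, was used for correlations only. Identifiers were matched to symbols (48349 of 48709), and 92 spike-in entries were left out. Without molecular identifiers, reads are not independent molecules, and the counting does not state strand, so overlapping antisense reads cannot be told apart. The 9 genes, the lists and the tests were chosen with earlier results of these data known. Genes were named by a rule: the 9 members, Il1b, the 3 genes nearest to each member by rho, and at most 4 genes per list, those with the largest absolute log2 difference.

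Counts of the cells of a capture were added up, for age tests over all its cells and for class tests within each Il1b class of at least 3 cells, and tested with edgeR 4.0.16 (TMM, filterByExpr, quasi-likelihood F test, Benjamini-Hochberg adjusted p below 0.05) in R 4.3.3. Class fits held the capture as a block. This test gives no SE, so each SE printed is the absolute log2 difference divided by the square root of the F statistic. DESeq2 1.42.0 and limma 3.58.1 (pseudocount of 1 CPM) were alternatives. P-values measure the spread between captures. Thinning drew 50000 reads per cell with a fixed seed, in the 164 cells deep enough (Python 3.11.15, numpy 2.4.6, scipy 1.17.1). Doublets were not called. The tests were run on simulated counts with known changes. The spread of those counts was set in advance and not estimated from these data, so performance at the observed spread was not checked. RefSeq promoter windows (GRCm38.p6) were searched for the kappaB consensus. Figures were drawn with matplotlib 3.10.9.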

Additional observations from a re-analysis of the deposited data

Results flagged for a closer look

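Of 36 groups of values looked at for the 9 genes, 4 held a capture far from the others and 1 held opposite directions at the 2 ages. The critical values used for a capture far from the others are those that chance exceeds in about 1 in 20 groups. No critical value was used for opposite directions, which were looked for only in the class ratios over all cells.

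Nfkbiz stood at 1632 CPM in capture 36, above the next P120 capture at 933 CPM. The log2 ratio of Tnfaip3 in Il1b-positive over Il1b-negative cells was 7.89 in capture 38, above the next of the 6 captures at 0.80. Among cells without precursor transcripts, the log2 ratio of Rel was 7.03 in capture 38, above the next of the 4 captures at 2.33. In the same cells the log2 ratio of Relb was 5.71 in capture 9c and 0 in the other 3 captures, and it rested on 1 cell with 10 or more Relb reads.

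The log2 ratio of Nfkb1 in Il1b-positive over Il1b-negative cells had a median of 0.94 over the 3 P120 captures and -1.62 over the 3 P60 captures, with every P120 capture above 0 and every P60 capture below it. The difference between the ages did not pass the interaction test (edgeR adjusted p = 1.0, DESeq2 adjusted p = 0.20).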

How the results depend on the processing

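The number of genes called moved with the method more than the direction of the leading members did, and the cause was not tested. Between the ages, 10 genes were called in the main fit, 75 by DESeq2, 22 without a filter on low counts, 0 after thinning, by limma and with lane 1 as a covariate, and 2 in captures of lanes 2 and 3 only. That last setting, and the use of capture and sequencing run as the unit, were chosen after seeing the data. In the class fits after thinning, a cell was positive with at least 1 Il1b read left. Leaving out 1 capture gave 1 (without 10c) to 16 calls (without 21c), and 2 without capture 36. Between the Il1b classes, 1 gene was called in the main fit, 1237 by DESeq2, 59 without a filter, 10 after thinning, 167 by limma, 16 at a cut of 100 Il1b reads, 4 with at least 5 cells per class and 2 by capture and run, with 1 to 3 when a capture was left out. Without precursor transcripts, 1 gene was called, 169 by DESeq2, 2 by limma, 4 with at least 5 cells per class, and 0 without a filter, after thinning, in cells with 50000 reads, at cuts of 1 read and 10 CPM, by capture and run, without the replicate block and when any capture was left out (0 to 0). The interaction called 0 genes, 275 by DESeq2, 4 without a filter, 4 after thinning, 1 at a cut of 1 read, 1 at 10 CPM and 11 with at least 5 cells per class, with 0 to 8 when a capture was left out (8 without capture 31). The median share of cells over the 9 genes was 53.1% at 1 read, 25.6% at 10 reads and 31.1% after thinning.

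The log2 difference of Nfkbiz, Tnfaip2 and Nfkbia between the Il1b classes kept its direction under every alternative run, and at a cut of 1 read fell to 1.10, 1.34 and 1.18. The labels share no replicate numbers between groups, and the capture served as the replicate block in these fits. Without the replicate block the values were 3.54, 4.16 and 2.01, with adjusted p of 0.061, 0.22 and 0.24 and 1 gene called. Other members turned direction between the classes: Tnfaip3 to -0.23 by capture and run, Tnip1 to 0.0595 by limma and 1.06 without the replicate block, Nfkb1 to -0.0102 after thinning, -0.0579 at 100 reads and -0.48 by limma, Nfkb2 to -2.65 at 100 reads and Rel to -0.18 at 1 read. Leaving out captures gave -0.43 to 0.87 for Nfkb1, -1.71 to 2.24 for Nfkb2 and -0.52 to 0.82 for Tnfaip3. Without precursor transcripts, Nfkbia turned to -1.29 at 10 CPM, and Tnfaip3 to 4.72 with 5 cells and 1.35 at 100 reads.

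Between the ages, Nfkbia turned to 1.31 in lanes 2 and 3, 1.32 with the lane covariate and 0.45 by limma, Nfkbiz to -0.00205 in cells with 50000 reads, -0.48 by DESeq2 and -0.0532 without a filter, Tnfaip3 to 2.54 in lanes 2 and 3 and 2.52 with the lane covariate, Nfkb1 to -0.0330 and -0.0647, and Nfkb2 to 2.34 and 2.30, 0.25 after thinning and 0.00222 by limma. Leaving out captures gave -1.03 to 0.48 for Nfkbia, -0.84 to 0.43 for Nfkbiz, -2.24 to 1.61 for Nfkb2, -1.39 to 6.47 for Relb, -0.13 to 1.31 for Tnfaip2 and -0.87 to 5.07 for Tnip1. Relb, Nfkb2 and Tnip1 rest on few cells: under 10% of cells held 10 reads of each, and 1 cell held over 50% of their reads.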

Other observations

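The level of several members went with properties of the cell other than its Il1b reads, described here as Spearman's rho over the 164 thinned cells, which share captures and depth. With the GFP intensity score, rho was 0.35 for Tnfaip2, 0.22 for Nfkbiz and -0.22 for Nfkb1, beside 0.36 for Il1b. With the number of genes detected after thinning, rho was -0.41 for Tnfaip2 and -0.34 for Nfkbiz, while it was 0.32 for Nfkb1 and 0.27 for Tnip1, beside -0.57 for Il1b. With the total reads of the cell before thinning, rho was -0.23 for Nfkbiz, -0.21 for Tnfaip2 and 0.23 for Nfkb1. The part of these properties in the differences between the Il1b classes was not tested.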
